A study of Mus musculus with 8 samples.

Results

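Co-inhibitory receptors are surface proteins that dampen the response of an activated T cell, and 8 of them were described here in OT-I CD8+ T cells with and without a guide against Elovl1. The members were the 8 rows of the deposited count table with the symbols Ctla4, Btla, Cd160, Tigit, Lag3, Havcr2, Pdcd1 and Entpd1, of 56805 genes in all, and all 8 were among the 16006 genes that passed a filter on low counts. T cells place these receptors on their surface after activation, where they compete with costimulatory receptors for ligands, recruit phosphatases or turn over extracellular nucleotides. Several are kept at high levels by T cells that meet antigen for a long time, as in tumours, and antibodies against the proteins of Pdcd1, Ctla4 and Lag3 are used in cancer treatment. Transcript levels do not give the amount of protein at the cell surface.

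The cells were OT-I T cells, with a transgenic receptor for a chicken ovalbumin peptide, isolated from spleen and lymph nodes of C57BL/6J-background mice that also carried Cas9, expressed constitutively from Rosa26, after a cross with Rag2/OT-I mice. They were activated in vitro with beads against CD3 and CD28, expanded in IL-2, IL-7 and IL-15, and transduced with a lentiviral vector that held either a guide against Elovl1 (sgElovl1) or a non-targeting guide (sgNT), and cells with the vector's CD90.1 marker were sorted 3 days after transduction. Both groups therefore shared Cas9, the OT-I receptor, the activation, the cytokines and the vector, and the cells were a sorted population of transduced cells and not 1 clone. The labels name 8 samples in 2 experiments, and the authors summed the counts of the 2 mice of each group and experiment, so that 4 columns were analysed, sgElovl1 and sgNT of experiment 2 and sgElovl1 and sgNT of experiment 1. No spread between mice could be had from these sums, and p-values rest on a spread between the 4 columns that was estimated over all genes together.

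Total counts were between 49068952 and 63623476 a column, and 3 counts, the limit that a count of 0 allows, corresponded to 0.0474 to 0.0601 CPM (counts scaled to a common library size). CPM values here are scaled by the trimmed mean of M-values (TMM), which sets the effective library size of each column. Elovl1, which encodes an elongase of saturated very long-chain fatty acids and was read as a check of the labels, had 55.8 CPM in sgElovl1 and 93.5 CPM in sgNT of experiment 2, and 61.3 CPM in sgElovl1 and 110 CPM in sgNT of experiment 1. It was lower in sgElovl1 in both experiments, at a log2 fold change of -0.80 (SE 0.07, adjusted p = 3.8e-28 in edgeR), and p = 0.333 by exact permutation (two-sided), below which 2 columns against 2 cannot go. All 8 T cell markers had counts in every column and summed to 5892 to 6514 CPM. Cd4 had 0 counts in both columns of experiment 2, and 6 counts in sgElovl1 and 2 counts in sgNT of experiment 1. Marker sums of myeloid and dendritic cells reached 14.1 to 31.0 CPM, those of NK cells 6.41 to 7.30 CPM and those of erythroid cells 0.247 to 0.433 CPM. The B cell markers summed to 404 to 822 CPM, of which Ighm alone made 396 to 812 CPM.

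The promoters of Ctla4, Btla and Havcr2 are shown because Ctla4 was the only member past the threshold between the guides and because Btla and Havcr2 differed most between the experiments, in opposite directions. The windows are RefSeq sequences of build GRCm38.p6, which is not the GRCm39 build that the authors aligned to, and run 5′ to 3′ on the strand of the gene from 250 bases before the annotated start. They lie at chr1:60908775-60909074 (Ctla4, plus strand), chr16:45224087-45224386 (Btla, plus strand) and chr11:46454681-46454980 (Havcr2, plus strand). Capitals mark matches, on either strand, to the NFAT core GGAAA, the AP-1 site TGANTCA or the Runx site TGTGGT, which are motifs of factors that act in activated T cells.
Ctla4: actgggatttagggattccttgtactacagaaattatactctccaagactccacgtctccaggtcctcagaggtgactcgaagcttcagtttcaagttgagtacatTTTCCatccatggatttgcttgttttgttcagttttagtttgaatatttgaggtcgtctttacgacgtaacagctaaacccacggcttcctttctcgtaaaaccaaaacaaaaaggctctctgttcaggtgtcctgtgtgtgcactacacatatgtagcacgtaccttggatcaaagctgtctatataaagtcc
Btla: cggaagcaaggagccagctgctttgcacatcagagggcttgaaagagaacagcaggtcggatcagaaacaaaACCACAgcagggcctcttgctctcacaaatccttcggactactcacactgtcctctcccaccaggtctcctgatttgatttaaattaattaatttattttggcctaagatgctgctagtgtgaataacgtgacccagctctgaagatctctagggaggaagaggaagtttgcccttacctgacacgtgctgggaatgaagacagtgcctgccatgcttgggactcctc
Havcr2: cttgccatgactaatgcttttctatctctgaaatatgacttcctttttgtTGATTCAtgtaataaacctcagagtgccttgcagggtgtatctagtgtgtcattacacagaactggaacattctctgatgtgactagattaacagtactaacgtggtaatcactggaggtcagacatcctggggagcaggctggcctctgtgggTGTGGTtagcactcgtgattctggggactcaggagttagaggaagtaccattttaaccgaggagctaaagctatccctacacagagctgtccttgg

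The Ctla4 window held 1 NFAT core and none of the other motifs, and the Btla window held 1 Runx site. The Havcr2 window held 1 match to the AP-1 pattern, TGATTCA, with T at the open base N, and 1 Runx site. None of these matches overlapped another. Windows were found for 7 of the 8 members, 9 windows in all, and Lag3 had no entry. Over these 9 windows the NFAT core was found in 5, the AP-1 site in 1 and the Runx site in 6. The 6 windows with a Runx site came from 5 genes, since both windows of Cd160 held it. Of all 32851 windows of the same length, 61.3%, 7.81% and 16.8% held the NFAT core, the AP-1 site and the Runx site. The members were not tested against these shares. A match is a description of the letters and not of a bound site.

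Most of these receptors were not called different between the guides, which does not show that they were unchanged. Of the 8 members, 1 passed the threshold, Ctla4, which was higher in sgElovl1, and none was lower, with 1.20% of all genes past it in either direction (192 of 16006 genes, adjusted p under 0.05 in the quasi-likelihood test of edgeR with experiment as a term) and 0.762% higher and 0.437% lower in sgElovl1. The median log2 fold change of the members was 0.007, beside -0.014 over all genes tested. The fold was above 0 for 4 members and below 0 for 4. Over all genes 122 of the 192 were higher in sgElovl1, a share of 63.5%, which became 75.0%, 76.2% and 79.7% with DESeq2 size factors, upper-quartile factors and scaling without the mitochondrial and most abundant genes.

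Ctla4 encodes CTLA-4, which takes the ligands CD80 and CD86 away from the costimulatory receptor CD28. It had 171 CPM in sgElovl1 and 152 CPM in sgNT of experiment 2, and 85.8 CPM in sgElovl1 and 65.5 CPM in sgNT of experiment 1. The sgElovl1 column was the higher in each experiment, but both columns of experiment 2 lay above both of experiment 1, so that the guides overlapped over the 4 columns. The fitted log2 fold was 0.28 (SE 0.06; edgeR adjusted p = 0.00493), a fold of 1.21, with 0.17 in experiment 2 and 0.39 in experiment 1. Of all genes tested, 77.0% had a smaller fold in either direction. These include genes of low counts, whose folds have a large SE, and no rank among genes of a similar level was made.

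The fold of Ctla4 was 0.29 in DESeq2, 0.29 in edgeR with genes of at least 5 CPM only and 0.24 in edgeR without the experiment term, but the call was lost in each: the adjusted p was 0.0993 and 0.0960 in DESeq2 (Wald test and likelihood-ratio test), 0.0542 with that filter and 1.00 without that term. With guide as the only term and 1 column left out, the fold was 0.66 without sgElovl1 and -0.24 without sgNT of experiment 1, and -0.32 without sgElovl1 and 1.00 without sgNT of experiment 2, because the remaining columns then mix guide with experiment. Genes higher in experiment 2 also tended to be higher in sgElovl1, with a slope of 0.089 over genes of at least 5 CPM, and with this slope taken out the fold of Ctla4 was 0.18 (SE 0.06, adjusted p = 0.295 in edgeR). Foxp3, a marker of regulatory T cells, which are known to hold much CTLA-4, moved in the same direction as Ctla4, with 10.6 CPM in sgElovl1 and 8.67 CPM in sgNT of experiment 2, and 5.45 CPM in sgElovl1 and 4.28 CPM in sgNT of experiment 1 (log2 fold change 0.32, SE 0.16, adjusted p = 0.449 in edgeR). The other tested markers of this list had log2 folds of 0.20 (Lrrc32), -0.01 (Il2ra), -0.01 (Zbtb7b) and -0.29 (Ikzf4), none past the threshold. The 6 markers of CD4 and regulatory T cells together ran the other way between the experiments, at 283 and 279 CPM in sgElovl1 and sgNT of experiment 2 and 451 and 443 CPM in sgElovl1 and sgNT of experiment 1, with Il2ra, which activated CD8+ T cells also express, as the most abundant. The cells had been isolated as CD8+ T cells before activation, and Cd4 was at 0 to 6 counts. The part of these markers in the result on Ctla4 was not tested. In bulk RNA, a change in the number of cells of a type and a change in RNA per cell cannot be told apart. Rpl18-ps1, a pseudogene that the GRCm38 annotation places within Ctla4 on the same strand, had 59 to 93 counts, against 4149 to 9498 counts for Ctla4.

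**Figure D1:**
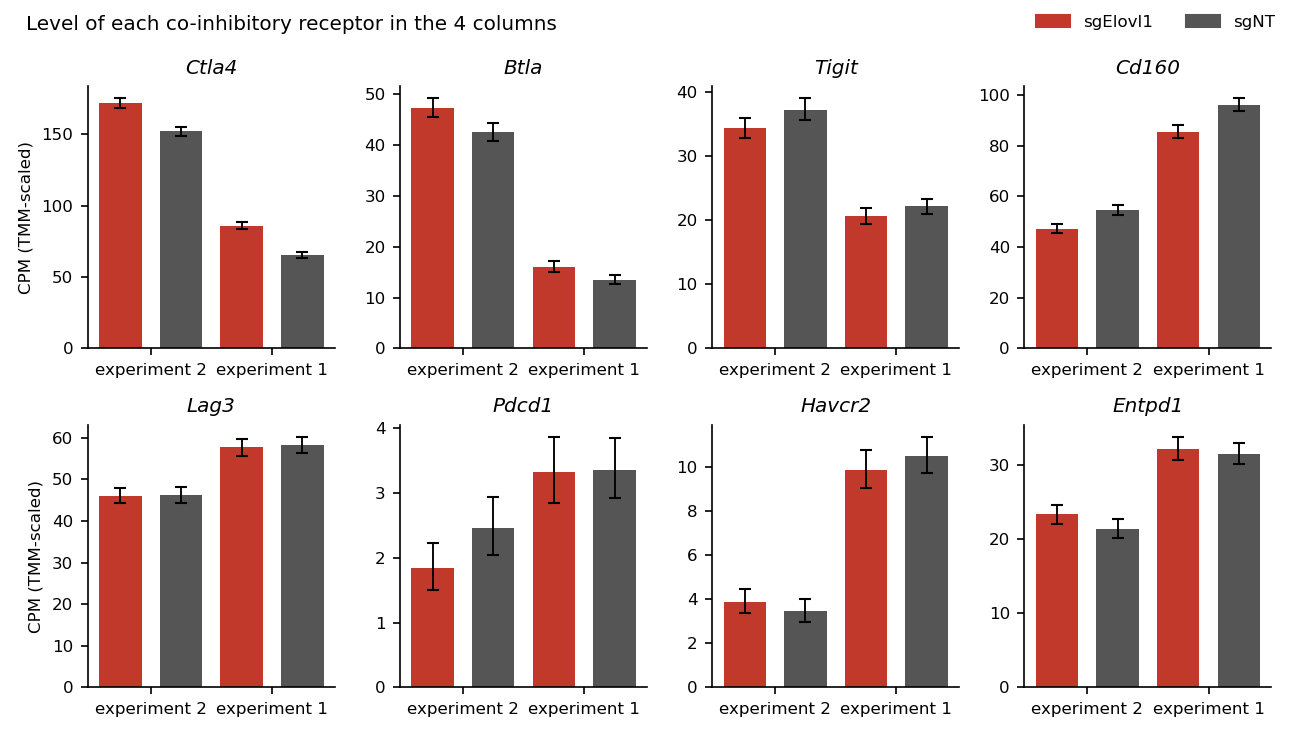
Level of each receptor in CPM (TMM-scaled, axes from 0) in the sgElovl1 and sgNT columns of experiments 2 and 1. Bars are single columns, each the sum of 2 mice, and error bars are exact 95% Poisson intervals, which cover counting error only. Ctla4, Btla and Tigit stood higher in both columns of experiment 2, and the other 5 receptors stood lower.

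Btla and Cd160 bind the same ligand, the TNF receptor family member HVEM (Tnfrsf14), and neither passed the threshold. Btla, an immunoglobulin-family receptor that recruits phosphatases, had 47.3 CPM in sgElovl1 and 42.5 CPM in sgNT of experiment 2, and 16.0 CPM in sgElovl1 and 13.5 CPM in sgNT of experiment 1. Cd160, a lipid-anchored receptor, had 47.3 CPM in sgElovl1 and 54.6 CPM in sgNT of experiment 2, and 85.5 CPM in sgElovl1 and 96.2 CPM in sgNT of experiment 1. Within each experiment Btla was higher and Cd160 was lower in sgElovl1, in each case by more than counting error. The log2 fold changes were 0.19 (SE 0.08) for Btla and -0.19 (SE 0.07) for Cd160. The adjusted p in edgeR was 0.336 for Btla and 0.197 for Cd160 (unadjusted 0.0186 and 0.00637). With the slope on the experiments taken out, the folds were 0.05 (SE 0.08) for Btla and -0.11 (SE 0.07) for Cd160.

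Tigit encodes a receptor that competes with CD226 for the poliovirus receptor and nectins. It had 34.4 CPM in sgElovl1 and 37.3 CPM in sgNT of experiment 2, and 20.7 CPM in sgElovl1 and 22.2 CPM in sgNT of experiment 1. The counting intervals of the 2 levels overlapped within each experiment. The counting interval of the fold itself lay below 0 in experiment 2, at -0.209 to -0.023, and spanned 0 in experiment 1, at -0.215 to 0.015. Over both experiments the log2 fold was -0.11 (SE 0.08, edgeR adjusted p = 0.707), with a 95% interval of -0.27 to 0.05.

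Lag3, whose protein binds MHC class II, had the smallest difference between the guides among the members. It had 46.1 CPM in sgElovl1 and 46.3 CPM in sgNT of experiment 2, and 57.8 CPM in sgElovl1 and 58.2 CPM in sgNT of experiment 1. The log2 fold change was -0.01 (SE 0.07), with a 95% interval of -0.15 to 0.13, and its sign turned under other scalings.

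Entpd1 encodes CD39, the enzyme that degrades extracellular ATP to AMP. It had 23.4 CPM in sgElovl1 and 21.4 CPM in sgNT of experiment 2, and 32.2 CPM in sgElovl1 and 31.6 CPM in sgNT of experiment 1. The log2 fold change was 0.07 (SE 0.08, 95% interval -0.09 to 0.24). Within the experiments the fold was 0.13 in experiment 2, with a counting interval of 0.008 to 0.244, and 0.03 in experiment 1, with a counting interval of -0.066 to 0.122.

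Havcr2 and Pdcd1, both used as markers of exhausted T cells, had the lowest counts of the 8 members and the widest intervals. Havcr2, which encodes TIM-3, had 3.90 CPM in sgElovl1 and 3.46 CPM in sgNT of experiment 2, and 9.86 CPM in sgElovl1 and 10.5 CPM in sgNT of experiment 1. Its fold had opposite signs in the experiments, and over both it was 0.02 (SE 0.16, 95% interval -0.29 to 0.34).

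Pdcd1, which encodes PD-1, had 1.84 CPM in sgElovl1 and 2.46 CPM in sgNT of experiment 2, from 102 and 123 counts, and 3.33 CPM in sgElovl1 and 3.36 CPM in sgNT of experiment 1, from 175 and 213 counts. Neighbouring columns in this order overlapped in their counting intervals. The counting interval of the fold itself lay below 0 in experiment 2, at -0.813 to -0.029, and spanned 0 in experiment 1, at -0.313 to 0.279. The log2 fold was -0.21 (SE 0.26, edgeR adjusted p = 0.875), and the 95% interval of -0.72 to 0.31 leaves room for a change in either direction at this depth.

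**Figure D2:**
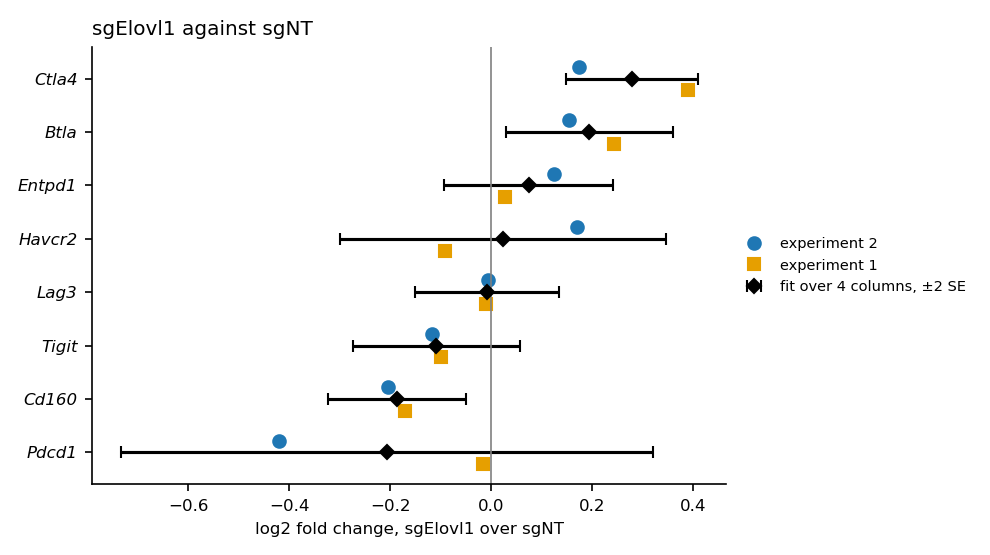
Log2 fold change of sgElovl1 over sgNT for each receptor, from the fit over 4 columns (diamonds, bars of 2 SE on either side) and within experiment 2 (circles) and experiment 1 (squares). Ctla4 lies at 0.28, Btla at 0.19 and Cd160 at -0.19, and Havcr2 has opposite signs in the experiments.

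The experiments differed far more than the guides. All 8 members passed the threshold between experiment 2 and experiment 1, of which 3 were higher and 5 lower in experiment 2, with 55.6% of all genes past it (8896 of 16006 genes, 26.4% higher and 29.2% lower). The CPM values of no member overlapped between the experiments, although for Pdcd1 the counting intervals did. How many of all genes tested separate in this way was not counted, so the separation cannot be read as particular to the receptors. The median size of the log2 difference was 0.79 over the members and 0.47 over all genes tested, and the median difference with its sign was -0.42 over the members and -0.002 over all genes. The experiments used different mice, and the sources used here give no other difference between them, so mouse, culture and sequencing cannot be told apart.

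Btla, Ctla4 and Tigit were higher in experiment 2. Btla had a log2 difference of 1.61 (SE 0.08, edgeR adjusted p = 7.6e-79), a fold of 3.04, with 1.56 in sgElovl1 and 1.65 in sgNT. Ctla4 was higher by 1.10 (SE 0.07), a fold of 2.15, and its difference was 1.00 in sgElovl1 and 1.21 in sgNT. Tigit was higher by 0.74 (SE 0.08), a fold of 1.67, with 0.73 in sgElovl1 and 0.75 in sgNT. Each of these receptors was thus higher in experiment 2 under either guide.

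Havcr2, Cd160, Pdcd1, Entpd1 and Lag3 were lower in experiment 2. Havcr2 had a log2 difference of -1.47 (SE 0.16, adjusted p = 2.7e-18 in edgeR), with -1.34 in sgElovl1 and -1.60 in sgNT, so that experiment 1 was 2.77 times as high. Cd160, the other receptor of HVEM beside Btla, had -0.84 (SE 0.07), the opposite direction to Btla. Entpd1 had -0.51 (SE 0.08) and Lag3 had -0.33 (SE 0.07), the smallest difference of the 8. Entpd1 had -0.46 in sgElovl1 and -0.56 in sgNT, and Lag3 had -0.33 under either guide.

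Pdcd1 had a log2 difference of -0.65 (SE 0.26, adjusted p = 0.0273 in edgeR), with -0.85 in sgElovl1 and -0.45 in sgNT. It was the member whose call was lost under other settings, with adjusted p = 0.155 and 0.158 in DESeq2 (Wald test and likelihood-ratio test), 0.0575 with upper-quartile factors, 0.349 without sgElovl1 of experiment 2 and 0.0524 without sgNT of experiment 2, both with experiment as the only term.

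Summed over the 8 members, the level was 376 CPM in sgElovl1 and 360 CPM in sgNT of experiment 2, and 311 CPM in sgElovl1 and 301 CPM in sgNT of experiment 1. Ctla4 made 45.6% of this sum in sgElovl1 and 42.2% in sgNT of experiment 2, and 27.6% in sgElovl1 and 21.8% in sgNT of experiment 1. Counts were not divided by gene length, so these shares describe reads and not molecules. Markers of other cell types also differed between the experiments. Itgam had a log2 difference of 2.95 (SE 0.43), Itgax 2.28 (SE 0.15), Foxp3 0.98 (SE 0.16) and Ighm 0.90 (SE 0.07), all higher in experiment 2. Il2ra had -0.76, Lrrc32 -0.73 and Ikzf4 -1.26, all lower in experiment 2, and the part of these markers in the difference of the receptors was not tested.

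**Figure D3:**
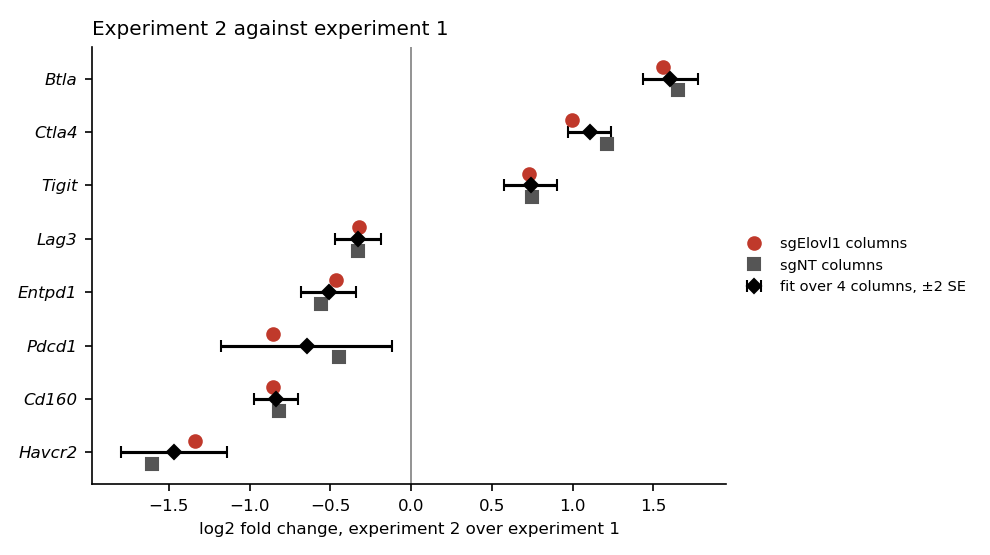
Log2 fold change of experiment 2 over experiment 1 for each receptor, from the fit over 4 columns (diamonds, bars of 2 SE on either side) and within the sgElovl1 columns (circles) and the sgNT columns (squares). Btla, Ctla4 and Tigit lie between 0.74 and 1.61, and the other receptors between -1.47 and -0.33.

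Genes around the receptors were read between the guides in the same way. Of all genes tested, 1.20% passed the threshold, 0.762% higher and 0.437% lower in sgElovl1. No list was compared with these shares by a test. Of 16 tested genes for other inhibitory receptors of lymphocytes 1 rose and none fell, of 12 for trafficking and surface turnover 1 fell and none rose, and none passed among 13 ligands, 9 costimulatory counterparts, 14 phosphatases and adaptors, 11 genes of the path of ATP to adenosine and 24 transcription factors. Unadjusted p was under 0.05 for 3 of the other inhibitory receptors, 2 ligands, 3 costimulatory counterparts, 2 phosphatases and adaptors, 2 trafficking genes, 2 transcription factors and 0 genes of the ATP path, beside 10.6% of all genes tested. The median log2 fold changes of the 7 lists ran from -0.064 to 0.033.

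Slamf6, a self-binding receptor of the SLAM family that is used as a marker of less differentiated exhausted T cells, was the inhibitory receptor that rose. It had 89.8 CPM in sgElovl1 and 77.1 CPM in sgNT of experiment 2, and 31.4 CPM in sgElovl1 and 24.7 CPM in sgNT of experiment 1, at a log2 fold change of 0.28 (SE 0.07, adjusted p = 0.0168 in edgeR). Like Ctla4 it was higher in experiment 2, by 1.58 (SE 0.07), and with the slope on the experiments taken out its fold was 0.14 (adjusted p = 0.682 in edgeR). Adam10, a protease that sheds LAG-3 and TIM-3 from the cell surface, was the gene that fell, with 65.5 CPM in sgElovl1 and 75.4 CPM in sgNT of experiment 2, and 81.2 CPM in sgElovl1 and 97.4 CPM in sgNT of experiment 1. The log2 fold of Adam10 was -0.23 (SE 0.07, edgeR adjusted p = 0.0451), and neither gene passed the threshold in the DESeq2 tests or with the other filters on low counts. Adam10 was also past it only with TMM scaling, at adjusted p = 0.058 to 0.0918 in edgeR with the other scalings. With the slope on the experiments taken out, the fold of Adam10 was -0.20 (adjusted p = 0.206 in edgeR).

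The ligands that T cells can express themselves did not pass the threshold between the guides. Cd274, the gene of the PD-1 ligand PD-L1, had 15.5 CPM in sgElovl1 and 14.9 CPM in sgNT of experiment 2, and 17.4 CPM in sgElovl1 and 13.5 CPM in sgNT of experiment 1 (log2 fold change 0.21, SE 0.11, adjusted p = 0.445 in edgeR). Cd80 and Cd86, the ligands of CTLA-4 and CD28, had log2 folds of 0.04 (SE 0.15) and 0.20 (SE 0.28). Tnfrsf14, the ligand of Btla and Cd160, had 7.13 CPM in sgElovl1 and 9.57 CPM in sgNT of experiment 2, and 14.0 CPM in sgElovl1 and 14.8 CPM in sgNT of experiment 1, at -0.24 (SE 0.12, adjusted p = 0.453 in edgeR).

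Among the costimulatory counterparts, the log2 fold of Cd28 was 0.03 (SE 0.06), and Cd226, which shares ligands with Tigit, had -0.10 (SE 0.08). Tnfrsf9, the gene of 4-1BB, had the smallest p of this list, with 41.8 CPM in sgElovl1 and 46.9 CPM in sgNT of experiment 2, and 195 CPM in sgElovl1 and 234 CPM in sgNT of experiment 1 (log2 fold change -0.22, SE 0.07, adjusted p = 0.0678 in edgeR). In the path that follows CD39, Nt5e, which encodes CD73 and makes adenosine from AMP, had -0.02 (SE 0.08), and the nucleoside transporter gene Slc29a2 had -0.71 (SE 0.41, adjusted p = 0.55 in edgeR) from 26 to 147 counts. Pik3r1, a regulatory subunit of phosphoinositide 3-kinase, had -0.16 (SE 0.07, adjusted p = 0.304 in edgeR).

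Of the transcription factors, Tox, which acts in exhausted T cells, had 3.95 CPM in sgElovl1 and 3.80 CPM in sgNT of experiment 2, and 3.27 CPM in sgElovl1 and 5.65 CPM in sgNT of experiment 1 (log2 fold change -0.37, SE 0.21, adjusted p = 0.543 in edgeR). The sgNT column of experiment 1 alone stood high. Nfil3, which promotes Havcr2 expression, had -0.22 (SE 0.08, adjusted p = 0.135 in edgeR).

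Between the experiments each of these lists had members past the threshold in both directions, beside 26.4% of all genes higher and 29.2% lower. Of the 16 inhibitory receptors outside the 8 members 8 were higher and 2 lower in experiment 2, of the 13 ligands 2 were higher and 7 lower, of the 9 costimulatory counterparts 4 were higher and 3 lower, and of the 11 genes of the ATP path 2 were higher and 7 lower. Of the 14 phosphatases and adaptors 6 were higher and 4 lower, of the 12 trafficking genes 2 were higher and 5 lower, and of the 24 transcription factors 9 were higher and 6 lower. The median size of the difference was 1.10 in the ATP path and 0.58 in the ligands, and 0.24 to 0.45 in the other lists, beside 0.47 over all genes tested. Tnfrsf14 was lower in experiment 2 by a log2 difference of -0.80 (SE 0.12), as was its receptor gene Cd160 and unlike Btla. Tnfrsf9 had -2.27 (SE 0.07) and Nfil3 had -1.30 (SE 0.08), both lower in experiment 2. Tcf7, the gene of TCF-1, a factor of memory and stem-like T cells, was named after its values were seen and had 600 CPM in sgElovl1 and 569 CPM in sgNT of experiment 2, and 237 CPM in sgElovl1 and 207 CPM in sgNT of experiment 1, at 1.40 (SE 0.07).

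**Figure D4:**
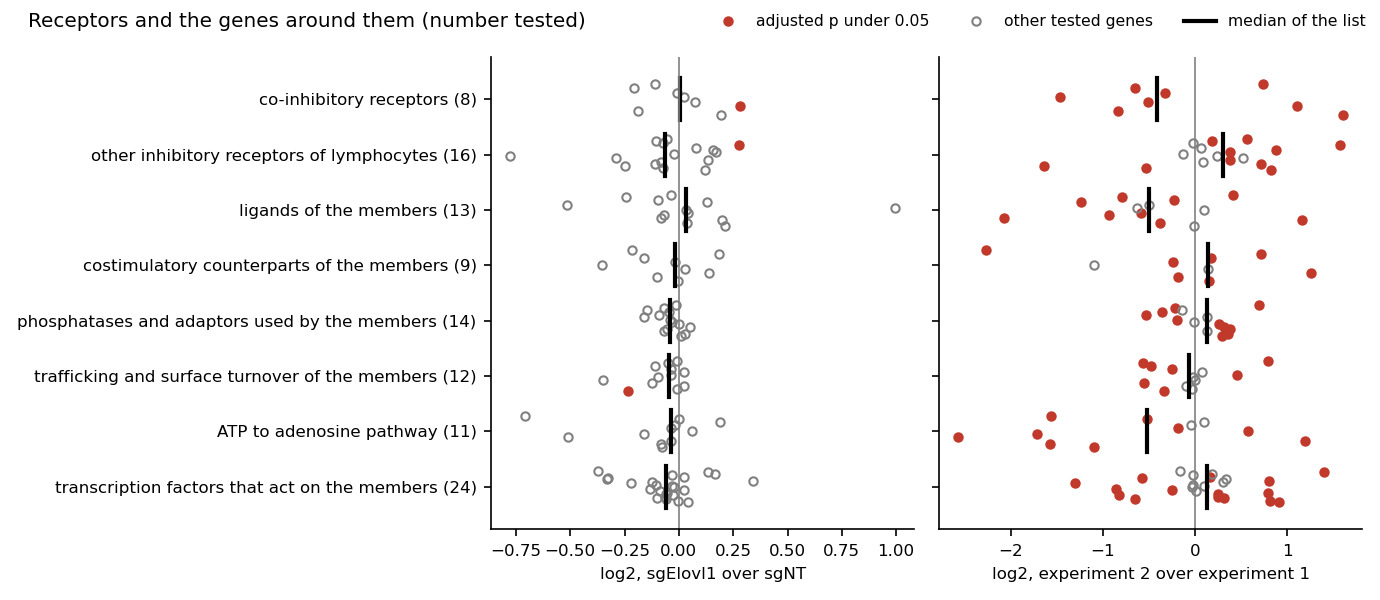
Log2 fold change of sgElovl1 over sgNT (left) and of experiment 2 over experiment 1 (right) for each tested gene of the 8 receptors and of 7 lists of genes around them. Filled points had an adjusted p under 0.05, open points did not, and black lines are list medians. On the left Ctla4, Slamf6 and Adam10 are the filled points, whereas on the right all 8 receptors are filled.

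The 3 genes whose pattern over the 4 columns was nearest to that of Ctla4, by Euclidean distance between centred log2 CPM profiles over 9755 genes of at least 5 CPM, were Gm44170 (distance 0.0413), Slc38a9 (0.0505) and Mbd6 (0.0624). Mbd6, which encodes a methyl-CpG-binding domain protein, had 145 CPM in sgElovl1 and 122 CPM in sgNT of experiment 2, and 70.1 CPM in sgElovl1 and 52.5 CPM in sgNT of experiment 1. Slc38a9, an amino acid transporter of the lysosome, had 49.3 CPM in sgElovl1 and 43.3 CPM in sgNT of experiment 2, and 23.8 CPM in sgElovl1 and 19.1 CPM in sgNT of experiment 1. Gm44170 had 17.1 CPM in sgElovl1 and 15.6 CPM in sgNT of experiment 2, and 8.53 CPM in sgElovl1 and 6.46 CPM in sgNT of experiment 1. With 4 columns many genes can match by this measure, and the likeness is a description only.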

How the data were processed

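As the methods and the submitters' processing notes give it, the authors aligned reads with STAR 2.7.10b to GRCm39 and counted them over whole genes, introns included, with featureCounts 2.0.1 in reverse-stranded mode in R 4.3.3. They then summed the counts of the mice of each group and experiment. The deposited values are these whole-number counts with no normalization, in 4 columns for 8 labelled samples, and no annotation release or handling of multiply aligned reads is given in the sources used here. Intronic reads can raise the counts of long genes. Reads that 2 genes on the same strand share could be lost or assigned to either. Antisense genes such as Pdzk1 beside Cd160 were told apart by strand.

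Genes were kept by filterByExpr (16006 of 56805, with 32132 at 0 in every column), scaled (TMM) and tested in edgeR 4.0.16 (quasi-likelihood test), with guide and experiment as terms, on 1 residual degree of freedom, with Benjamini-Hochberg adjustment over all tested genes and a threshold of 0.05. The prior degrees of freedom were infinite, so SE and p rest on a dispersion trend shared by all genes (biological coefficient of variation 6.98%) and do not measure how far the 2 experiments differ for a gene. The fit between the guides was tested on simulated data drawn with the same dispersion for every gene, which cannot test the use of a shared dispersion. Intervals of the folds are 95% intervals from the SE, and intervals of CPM are exact Poisson intervals. Both experiments hold sgElovl1 and sgNT columns, and experiment was a term of the fit because its number marks a shared experiment in the labels.

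Alternatives were DESeq2 1.42.0 (size factors, Wald and likelihood-ratio tests), upper-quartile factors, scaling without the mitochondrial and the 20 most abundant genes, no filter, a filter at 5 CPM, limma-voom (limma 3.58.1), no term for the other factor, removal of the slope on the experiment difference, and each column left out. The design written at first assumed 8 separate libraries, and the same tests were run on the 4 columns. Genes named were the 8 members, Elovl1, Cd28, Cd226, Cd274, Cd80, Cd86, Tnfrsf14, Nt5e, Tox, the genes of each list past the threshold (up to 4) or else the 1 with the smallest p, and the 3 genes nearest to Ctla4. Markers of other cell types and Tcf7 were named beside them. The members and all lists were chosen with earlier results of these data known. The promoter windows were RefSeq sequences of GRCm38.p6, matched by symbol.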

Additional observations from a re-analysis of the deposited data

Results flagged for a closer look

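Havcr2 was flagged because its columns moved in opposite directions in the experiments, with a log2 fold change of sgElovl1 over sgNT of 0.17 in experiment 2 and -0.092 in experiment 1. The difference between the experiments was not tested, since each experiment held 1 column of each guide. The counting intervals of both folds spanned 0, at -0.13 to 0.47 in experiment 2 and -0.26 to 0.08 in experiment 1.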

How the results depend on the processing

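Between the guides, the count of genes past the threshold was 192, and 94 with no filter on low counts, 35 with a filter at 5 CPM, 26 in DESeq2 by either test, 72 with the slope on the experiment difference removed, and 0 to 6 with 1 column left out. With no replicate block, that is with no term for the experiment, 0 genes and 0 members passed, and Havcr2 turned to -0.0245. The unadjusted p in edgeR was under 0.05 for 19 genes without this term, against 1698 genes with it. Of the members 1 passed, and 0 passed with the filter at 5 CPM, in both DESeq2 tests, with the slope removed, without the experiment term, and with any 1 column left out, when guide was the only term. The filter at 5 CPM also left Pdcd1 untested. With the remaining scalings, no filter and limma-voom, Ctla4 kept its call.

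Uncalled folds that changed sign were those of Lag3, at 0.0057 in all 3 DESeq2 settings, 0.0104 with upper-quartile factors, 0.0142 with scaling without the most abundant genes, 0.0084 with the filter at 5 CPM and 0.0208 with the slope removed, and of Havcr2, at -0.0269 in limma-voom. With 1 column left out, the folds ranged from -0.32 to 1.00 for Ctla4, -0.79 to 1.25 for Btla, -0.67 to 0.28 for Cd160, -0.18 to 0.37 for Entpd1, -0.84 to 0.98 for Havcr2, -0.18 to 0.16 for Lag3, -0.66 to 0.21 for Pdcd1 and -0.50 to 0.34 for Tigit, which follows from the unequal mix of experiments that each omission leaves. Between the experiments, 7 or 8 members passed in each alternative and none changed direction. Pdcd1 was lost in both DESeq2 tests, with upper-quartile factors and without either column of experiment 2, and was untested with the filter at 5 CPM. The depth limits Pdcd1 most, whose fold between the guides had an SE of 0.26, against 0.06 for Ctla4.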
